A study of Mus musculus with 11 samples.

Results

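Myc and the factors that assemble ribosomes were described in the mouse colon as a list of 34 genes, of which 33 were measured among the 18820 genes of the arrays. The list holds Myc itself, 5 genes of RNA polymerase I transcription, 4 abundant nucleolar proteins, 6 proteins of small nucleolar ribonucleoprotein particles, and 17 measured assembly factors of the small and large ribosomal subunits. A gene was measured where a probe set, the group of probes that reports a gene, named it as its only symbol, and of several such probe sets the brightest on average over the 11 arrays stood for the gene. Tsr1 was not measured.

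RNA came from colonic mucosal scrapings of male C57BL/6J mice of 12 weeks, 1 array per mouse. After 2 weeks of adaptation on a low-fat diet, 5 control mice stayed on that diet and 6 inulin mice received it with 10% by weight of the corn starch exchanged for inulin, a plant fructan fermented by gut bacteria, for 10 days. The treatment protocol describes an overnight fast, a meal of 1 g of the diet and death 4 h after it, whereas the design text mentions only the fast. Each diet is thus a single dose and a single time, and cage was not given in the labels.

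Myc is a transcription factor that binds DNA together with Max and drives the growth of dividing cells, in the colon mainly cells of the lower crypt. Its known targets include much of the machinery that makes ribosomes. In the nucleolus RNA polymerase I transcribes the ribosomal RNA precursor, small nucleolar particles guide its chemical modification, and many assembly factors fold, cut and export the pre-ribosomal subunits.

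Values are log2 array values, on which a step of 1 is a doubling, and a difference is always inulin minus control. The arrays were much alike, with medians between 5.38 and 5.46 and correlations between 0.988 and 0.998. The 12 epithelial markers, such as Cdh1, Krt18 and Vil1, had a mean of 11.33 to 11.42 in every mouse, far above the lower quartiles of the arrays, which lay between 3.72 and 3.79. Inulin mouse 5 stood apart on the first principal component, at 37.0 against -12.3 to 13.5 for the other mice. It also had the highest mean of the fat cell, macrophage, B or plasma cell, T cell, fibroblast, smooth muscle and endothelial markers. Its mean was the highest too for the surface colonocyte and the epithelial markers, the latter at 11.42 against 11.33 to 11.39 in the other mice. It had the lowest mean of the crypt progenitor and cell cycle markers. Results that rest on this mouse are therefore given with and without it. Scrapings are bulk tissue, so fewer cells of a type and less RNA per cell cannot be told apart.

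None of the 33 genes passed the threshold, an adjusted p of 0.05 over all genes in limma, yet 31 of them were lower on average under inulin. Over all genes 0.0903% passed in either direction, 0.0372% passed as lower, and 48.6% had a difference below 0. At an unadjusted p under 0.05, 11 of the 33 were lower and 0 were higher in limma, against 7.19% lower and 6.34% higher among all genes. Those 11 were Myc, Ubtf, Mybbp1a, Ddx21, Ncl, Gnl3, Gar1, Wdr43, Rcl1, Ppan and Rrs1. The median difference was -0.14, beside 0.0039 for all genes, of which 5% lay below -0.20. Without inulin 5, 29 of the 33 were lower, beside 47.1% of all genes, and 7 were lower at an unadjusted p under 0.05, beside 7.6%. The median difference was then -0.090.

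**Figure D1:**
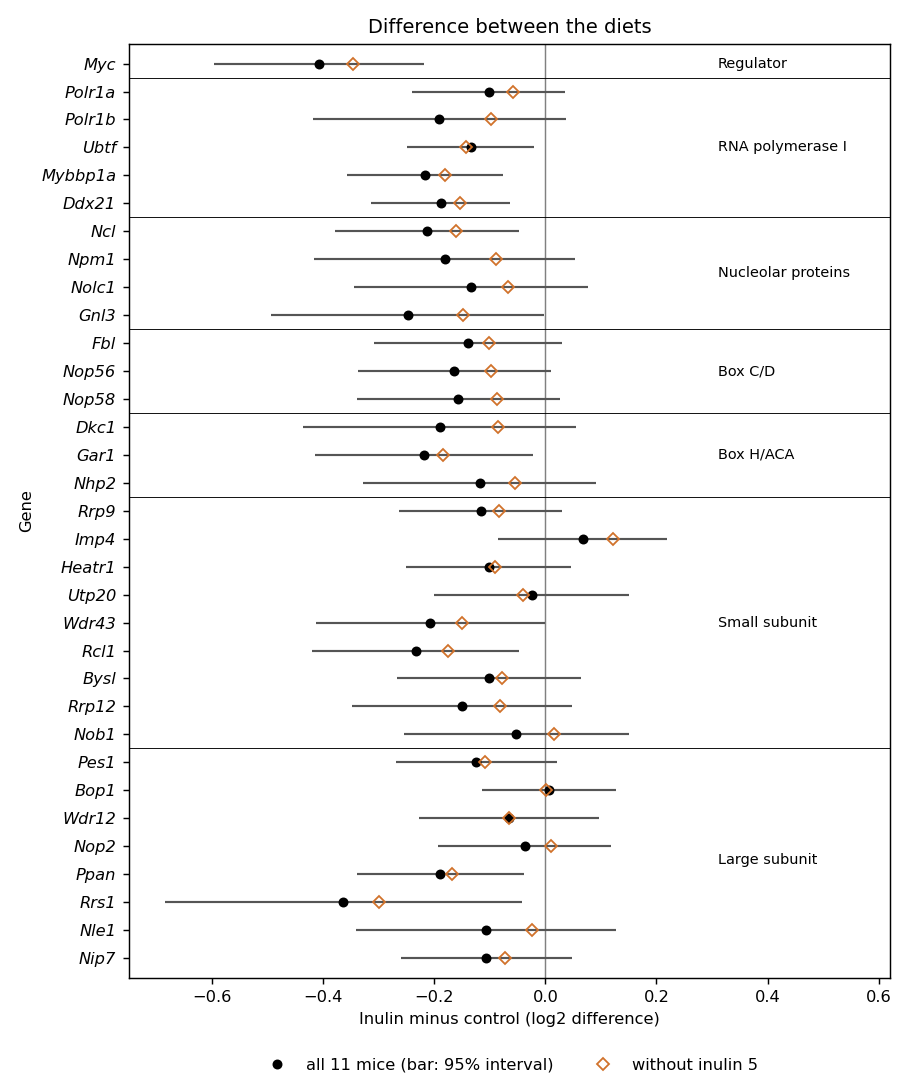
Difference between the diets on the log2 scale for the 33 genes, grouped by role, with limma's 95% interval over all 11 mice (black points and bars) and the difference without inulin mouse 5 (open diamonds). Of the 33 points 31 lie left of 0, with Myc farthest at -0.41, and most diamonds lie nearer to 0 than the points.

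Myc had the largest difference of the list. Its value was 8.58, 8.29, 8.51, 8.67 and 8.64 in control mice 1 to 5 and 8.21, 8.12, 8.20, 8.25, 7.83 and 8.16 in inulin mice 1 to 6. Every inulin mouse lay below every control mouse, although control 2 and inulin 4 were close, and inulin 5 was clearly the lowest. The means were 8.54 ± 0.15 (SD, n = 5) under control and 8.13 ± 0.155 (SD, n = 6) under inulin, a difference of -0.41 with a standard error of 0.087 and a 95% interval from -0.60 to -0.22, or 0.754 of the control level. In limma the adjusted p was 0.082, and 101 genes had a smaller p. A two-sided exact permutation test over the 462 divisions of the mice gave p = 0.0022, the smallest that it can give. Without inulin 5 the difference was -0.35 with an adjusted p of 0.051 in limma. With array weights, which give less weight to arrays that deviate from the others, it was -0.37 with an adjusted p of 0.031, the only 1 of 23 settings in which Myc passed.

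**Figure D2:**
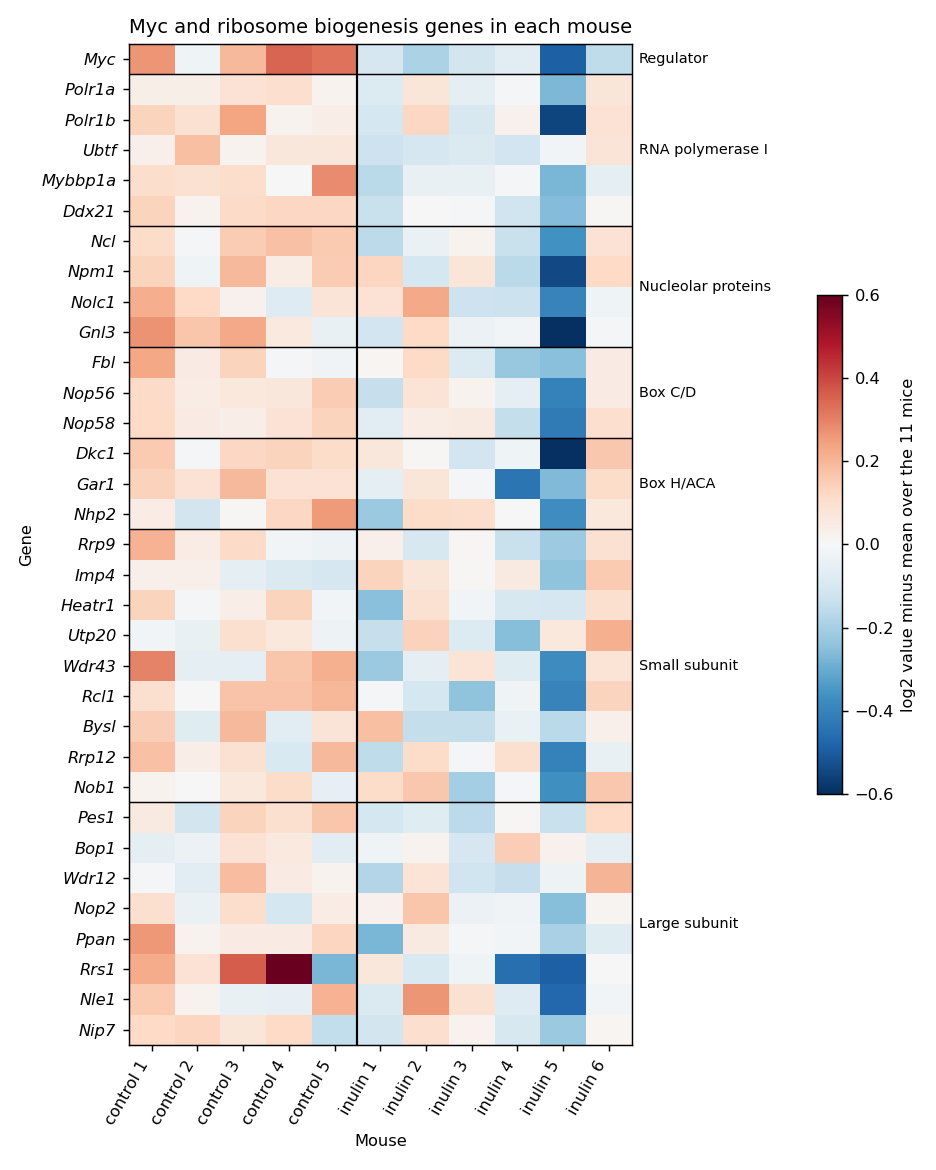
Value of each of the 33 genes in each of the 11 mice, as the log2 deviation from that gene's mean over the mice, with genes in rows by role and mice in columns by diet. Inulin 5 holds the lowest value of 25 genes, and no control mouse holds the lowest value of any.

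The genes of RNA polymerase I transcription were lower in 5 of 5 cases, 3 of them at an unadjusted p under 0.05, with a median difference of -0.19 (-0.14 without inulin 5). Mybbp1a encodes a nucleolar Myb-binding protein that takes part in ribosomal RNA transcription and processing. Its value was 7.74, 7.73, 7.74, 7.64 and 7.92 in the control mice and 7.48, 7.59, 7.59, 7.63, 7.36 and 7.58 in the inulin mice. The diets did not overlap, but control 4 and inulin 4 differed little. The difference was -0.22 ± 0.065 (SE), with an adjusted p of 0.18 in limma, the smallest of the list after Myc. Ddx21, an RNA helicase that couples polymerase I transcription with processing, was at 8.48, 8.37, 8.47, 8.47 and 8.47 in the control mice and ran from 8.09 through a median of 8.29 to 8.36 in the inulin mice. These diets did not overlap either, with control 2 just above the highest inulin mouse. Its difference was -0.19 ± 0.058 (SE), with an adjusted p of 0.19 in limma. Myc, Mybbp1a and Ddx21 were thus 3 of 33 genes with all inulin mice below all control mice, a pattern seen in 1.16% of all genes.

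Ubtf encodes the upstream binding factor that opens ribosomal DNA for polymerase I. It was at 9.27, 9.42, 9.26, 9.31 and 9.31 in the control mice and ran from 9.12 through a median of 9.15 to 9.32 in the inulin mice. Inulin 6 lay among the controls and the other 5 inulin mice lay below them. Inulin 5 was not the lowest mouse for Ubtf, and the difference was -0.135 ± 0.053 (SE) with inulin 5 and -0.144 without it. Polr1a and Polr1b encode the large catalytic subunits of the polymerase. Polr1b was 8.23 in control and 8.04 in inulin mice, a difference of -0.19 ± 0.105 (SE) that was -0.098 without inulin 5, whose value of 7.57 lay far below the other inulin mice. Polr1a differed by -0.10 and by -0.058 without that mouse.

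The abundant nucleolar proteins were lower in 4 of 4 cases, with a median difference of -0.20 (-0.12 without inulin 5). Ncl encodes nucleolin, which binds the ribosomal RNA precursor. It was at 9.88, 9.76, 9.92, 9.95 and 9.93 in the control mice and at 9.61, 9.73, 9.80, 9.64, 9.41 and 9.86 in the inulin mice. Inulin 3 and 6 lay within the control range and the other 4 inulin mice lay below it. The difference was -0.21 ± 0.076 (SE), with an adjusted p of 0.25 in limma. Gnl3, which encodes nucleostemin, a GTP-binding protein of proliferating cells, differed by -0.25 ± 0.114 (SE) and by -0.15 without inulin 5. Its control mice ran from 6.71 to 7.03 and its inulin mice from 6.14 through a median of 6.73 to 6.87. Only inulin 1 and 5 were below all controls. Npm1 encodes nucleophosmin, a chaperone of ribosomal proteins, and Nolc1 encodes a scaffold for small nucleolar particles. Their differences were -0.18 and -0.13, each with 3 of 6 inulin mice below the lowest control, and -0.090 and -0.067 without inulin 5. The 4 probe sets of Npm1 gave differences from -0.18 to -0.15, and it was not tested whether they also detect near-identical copies of the gene.

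The core proteins of box C/D particles, which guide methylation of ribosomal RNA, were all lower, with none at an unadjusted p under 0.05 and a median of -0.16 (-0.098 without inulin 5). Fbl encodes fibrillarin, the methyltransferase, and differed by -0.14. Nop56 and Nop58, its scaffold partners, each differed by -0.16, and by -0.098 and -0.087 without inulin 5. Nop56 was at 8.65, 8.58, 8.59, 8.60 and 8.69 in the control mice and ran from 8.13 through a median of 8.51 to 8.61 in the inulin mice. The control mice lay close together and 4 of 6 inulin mice lay below them. The unused probe set of Fbl gave -0.27.

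The box H/ACA particles, which guide pseudouridylation, were represented by Dkc1, Gar1 and Nhp2, with differences of -0.19, -0.22 and -0.12. Nhp2, a small RNA-binding protein of the particle, differed by -0.055 without inulin 5. Dkc1 encodes dyskerin, the pseudouridine synthase. It was at 6.97, 6.80, 6.93, 6.94 and 6.92 in the control mice and at 6.88, 6.82, 6.69, 6.78, 6.20 and 6.97 in the inulin mice. The diets overlapped widely apart from inulin 5, without which the difference was -0.085. Gar1, a structural protein of the particle, was at 7.02, 6.97, 7.08, 6.97 and 6.97 in the control mice and ran from 6.44 through a median of 6.84 to 6.99 in the inulin mice. Here inulin 4, not inulin 5, was the lowest, and 5 of 6 inulin mice lay below every control.

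Of 9 small subunit factors, 8 were lower, with a median difference of -0.10 (-0.082 without inulin 5). Rcl1 takes part in an early cut of the precursor, and Wdr43 belongs to the complex that assembles on it during transcription. Rcl1 was at 7.06, 6.96, 7.13, 7.14 and 7.16 in the control mice and at 6.96, 6.86, 6.72, 6.94, 6.56 and 7.10 in the inulin mice. Inulin 6 lay among the controls, and inulin 1 lay just below the lowest of them. The difference was -0.23 ± 0.086 (SE), with an adjusted p of 0.26 in limma, and -0.17 without inulin 5. Wdr43 differed by -0.21 ± 0.095 (SE), and 4 of 6 inulin mice lay below all controls. The other 6 lower genes encode the U3 particle protein Rrp9, the processome components Heatr1 and Utp20, the assembly factor Bysl, the export factor Rrp12 and the late nuclease Nob1. Their differences ran from -0.15 for Rrp12 to -0.025 for Utp20. Without inulin 5 Rrp12 differed by -0.082, and Nob1 by 0.016 in place of -0.053.

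Imp4, a protein of the U3 particle, was higher in inulin mice. It was at 9.32, 9.32, 9.24, 9.21 and 9.20 in the control mice and at 9.43, 9.37, 9.30, 9.35, 9.05 and 9.45 in the inulin mice. Inulin 1, 2, 4 and 6 lay above all controls, whereas inulin 5 lay below all of them. The difference was 0.067 ± 0.0705 (SE) with all mice and 0.12 without inulin 5, with unadjusted p-values of 0.36 and 0.036 in limma. Neither passed after adjustment.

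Of 8 large subunit factors, 7 were lower, with a median difference of -0.11 (-0.069 without inulin 5). Ppan, a factor of large subunit assembly, was at 6.88, 6.64, 6.67, 6.67 and 6.75 in the control mice and ran from 6.35 through a median of 6.58 to 6.67 in the inulin mice. Only inulin 2 reached the control range. The difference was -0.19 ± 0.069 (SE), with an adjusted p of 0.26 in limma. Rrs1, which helps to bring the small ribosomal RNA of the large subunit into the particle, had a difference of -0.36 ± 0.148 (SE). Its values were low, 4.05 to 4.92 in control and 3.84 to 4.40 in inulin mice, not far above the lower quartiles of the arrays, and the diets overlapped.

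Pes1, Bop1 and Wdr12 encode the subunits of a complex needed for large subunit maturation. Pes1 differed by -0.12, Wdr12 by -0.066 and Bop1 by 0.0060, with a 95% interval for Bop1 from -0.115 to 0.127. The unused probe set of Wdr12, which was dimmer, gave -0.29, so its probe sets disagreed in size, and that of Pes1, also dimmer, gave 0.043, so its probe sets disagreed in direction. The RNA methyltransferase gene Nop2 differed by -0.0375 (0.010 without inulin 5), and the assembly factors Nle1 and Nip7 each by -0.11. Inulin 5 was the lowest mouse for Nle1, whose difference was -0.024 without it.

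Averaged over the list, the mice of the diets overlapped. The mean deviation of the 32 genes other than Myc was 0.12, 0.022, 0.10, 0.069 and 0.067 in control mice 1 to 5. It was -0.065, 0.043, -0.042, -0.084, -0.30 and 0.063 in inulin mice 1 to 6. Inulin 2 and 6 lay within the control range, inulin 1, 3 and 4 a little below it, and inulin 5 far below. Inulin 5 was the lowest of all mice for 25 of the 33 genes, and over all genes it was the lowest for 21.3%.

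The relation with Myc was computed for each of the 32 other genes. Because the diets did not overlap in Myc, each value was taken as the deviation from its diet mean. Pearson's r over the 11 mice ran from -0.51 for Ubtf to 0.76 for Dkc1, with a median of 0.50, beside 0.062 for all genes. All these correlations share the same 11 arrays. The slope on Myc with diet in the model was positive for 29 of 32 genes, beside 54.8% of all genes. At an unadjusted p under 0.05 in limma it was positive for 8, beside 7.12% of all genes. The adjusted p passed for 0 of 32 genes and 0.0% of all genes in limma, with 2509 genes at an unadjusted p under 0.05. The smallest adjusted p of the 32 was 0.27, for Dkc1. The slopes had a median of 0.38 and a highest of 1.04, sizes of which few were recovered on simulated data.

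This relation rested on inulin 5. Without it the slope was positive for 16 of 32 genes, beside 50.2% of all genes, 0 had an unadjusted p under 0.05 in limma, beside 1.73% positive among all genes, and the median r was 0.0091. Without the 2 mice farthest from the Myc median, inulin 5 and control 4, the median r was 0.028. For Dkc1, r was 0.76 (permutation p = 0.024) and Spearman's rho 0.36 (permutation p = 0.24) over 11 mice, and r without those 2 mice was 0.33. For Rcl1, r was 0.71 (permutation p = 0.018) and rho 0.55 (permutation p = 0.073), and r without those mice was 0.37. Within the inulin mice alone the median r was 0.66. There the exact permutation p for Dkc1, with r = 0.87, was 0.12. Inulin 5 thus carried the low end of both measures, and the ranks of the mice, which limit its pull, gave a median rho of 0.18.

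**Figure D3:**
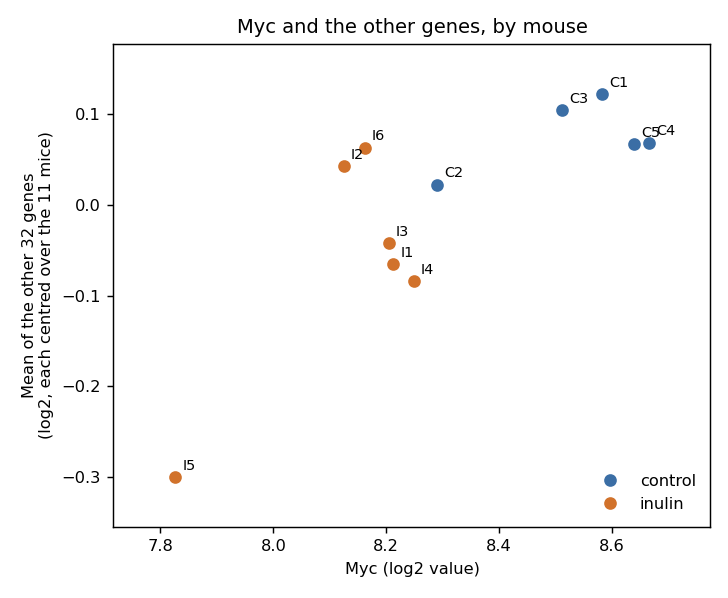
Mean of the 32 other genes, each centred over the 11 mice, against the value of Myc, both on the log2 scale, with 1 point per mouse (C, control; I, inulin; the number is the replicate). Inulin 5 lies apart at the lower left, at 7.83 and -0.30, and all control mice lie to the right of all inulin mice.

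The genes nearest to Myc were sought among 9026 genes with a mean at or above the median of all genes, leaving out the list itself, predicted genes, unnamed clones and small RNAs. By r on deviations from the diet means over 11 mice they were Ppp3r1 (0.94), Hint2 (0.94), Ktn1 (0.93), Nmd3 (0.93) and Rabl6 (0.93), and the most opposed were Cry2 (-0.95), Aak1 (-0.93) and Slc43a3 (-0.92). Without inulin 5, r was still 0.93 for Hint2, 0.85 for Nmd3 and -0.90 for Cry2. Nmd3 encodes the export adaptor of the large subunit, and Cry2 a repressor of the circadian clock. The slope on Myc did not pass in limma for any of these 8, with adjusted p-values from 0.17 to 0.30, and they were picked as the extremes of many genes.

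Other genes of ribosome production, taken from lists of textbook membership, were mostly lower too, with medians nearer to 0, and with all mice 0 genes of any list passed in limma. Over all genes 7.19% were lower and 6.34% higher at an unadjusted p under 0.05, and 48.6% had a difference below 0. These shares are the background for the counts of each list with all mice. Of 46 other small subunit factors 39 were lower, 5 at an unadjusted p under 0.05, with a median of -0.089. Without inulin 5, 33 were lower and the median was -0.052, and with the fat and pancreas marker means as covariates it was 0.027. Pwp2, a processome component, differed by -0.25 ± 0.060 (SE) without overlap between the diets. Of 52 other large subunit factors 42 were lower, 13 at an unadjusted p under 0.05, with a median of -0.10. Without inulin 5, 36 were lower and the median was -0.050, and with the same covariates it was 0.019. Urb1 (-0.28) and the assembly ATPase gene Mdn1 (-0.32) had the smallest p-values, and Eif6, which keeps the subunits apart, was the 1 gene higher at an unadjusted p under 0.05 (0.16, chosen after its value was seen). Of 12 other small nucleolar particle factors 10 were lower, 2 at an unadjusted p under 0.05, with a median of -0.11 that was -0.074 without inulin 5 and -0.011 with the covariates.

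Among the lists of ribosome production the polymerase lists had medians closest to 0. Of 16 other polymerase I genes 11 were lower, 1 of them (6.25%) at an unadjusted p under 0.05, a share below that of all genes. Their median was -0.044, -0.019 without inulin 5 and 0.016 with the covariates. The list includes subunits shared with other polymerases. These are Polr2e (-0.043), Polr2f (0.091), Polr2h (-0.028), Polr2k (0.0039), Polr2l (0.0060), Polr1c (-0.020) and Polr1d (0.080). Its median therefore does not stand for the genes particular to polymerase I. Taf1a, a subunit of the factor that recruits the polymerase, differed by -0.25 ± 0.065 (SE) without overlap. Of 19 genes of RNA polymerase III, which makes transfer RNA and the smallest ribosomal RNA, 15 were lower, 3 at an unadjusted p under 0.05, with a median of -0.048 that was -0.023 without inulin 5 and -0.012 with the covariates. The control mice had a mean of 7.68 ± 0.086 (SD, n = 5) for Brf1, an initiation factor of polymerase III, and the inulin mice one of 7.40 ± 0.085 (SD, n = 6). Its difference of -0.28 ± 0.058 (SE) had an adjusted p of 0.071 in limma, its diets did not overlap, and it was -0.30 without inulin 5.

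Of 69 ribosomal protein genes 65 were lower, 23 of them at an unadjusted p under 0.05, with a median of -0.10, of -0.081 without inulin 5 and of -0.045 with the covariates. Rps28 differed by -0.28 ± 0.066 (SE), Rps9 by -0.19 ± 0.053 (SE) and Rps12 by -0.22 ± 0.069 (SE). Ribosomal protein genes have many near-identical processed copies, and it was not tested whether their probe sets also detect these. Among inulin mice, inulin 4 and 5 had the lowest mean of this list, at -0.12 each, and control 2 was at -0.062, below 4 of 6 inulin mice.

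Of 15 genes of the Myc network, the partners and antagonists of Myc, 10 were lower, 3 at an unadjusted p under 0.05, with a median of -0.074 that was -0.034 without inulin 5 and -0.015 with the covariates. The coactivator Trrap differed by -0.18 ± 0.057 (SE) without overlap, and Mlxipl, a sugar-sensing relative, by -0.33 ± 0.123 (SE). The 5 higher genes included the partner Max (0.11) and the antagonists Mxd1 (0.15) and Mxi1 (0.13), with 0 at an unadjusted p under 0.05. Of 44 other known Myc targets, from nucleotide and one-carbon metabolism to chaperones, translation and splicing, 34 were lower, 6 at an unadjusted p under 0.05. Their median was -0.087, -0.048 without inulin 5 and 0.0083 with the fat and pancreas covariates. Pprc1 differed by -0.30 ± 0.073 (SE), and Cad, which starts pyrimidine synthesis, by -0.28 ± 0.096 (SE).

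**Figure D4:**
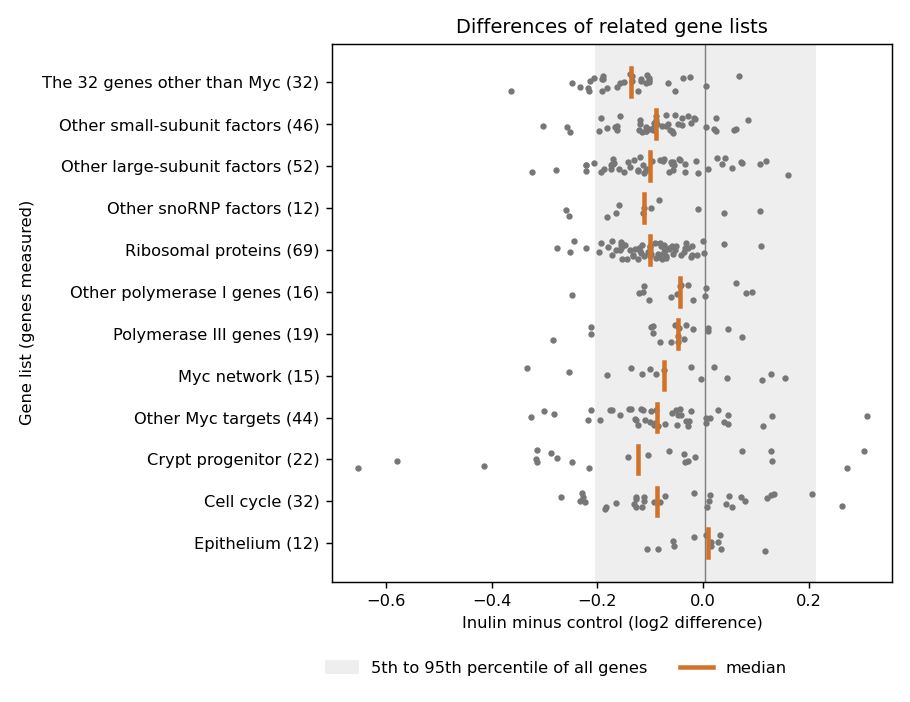
Difference between the diets on the log2 scale for every measured gene of each list (points), with the median of each list (bars) and the range from the 5th to the 95th percentile of all genes (grey). The medians of the ribosome lists lie between -0.14 and -0.044, left of the median of all genes at 0.0039.

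Markers of crypt cells and of other tissues also differed between the mice. Of 22 crypt progenitor markers 17 were lower, 10 at an unadjusted p under 0.05, with a median of -0.12 that was -0.037 without inulin 5 and -0.053 with the fat and pancreas covariates. Ascl2, a Wnt-driven stem cell factor, differed by -0.65 ± 0.170 (SE), Ephb3 by -0.41 ± 0.096 (SE) and Kcne3 by -0.31 ± 0.071 (SE), each without overlap. Without inulin 5 Ascl2 differed by -0.49, with an adjusted p of 0.039 in limma. The mean deviation of the crypt list was -0.42 in inulin 5, whereas the rest of the inulin mice lay between -0.027 and 0.057 and the control mice between 0.016 and 0.16. Of 32 cell cycle genes 19 were lower, 3 (9.38%) at an unadjusted p under 0.05, near the share of all genes. Their median was -0.087, -0.044 without inulin 5 and 0.082 with the fat and pancreas covariates. Their mean deviation ran from -0.15 to 0.18 in control and from -0.24 to 0.28 in inulin mice, so that the diets overlapped throughout. Of 27 surface colonocyte markers 21 were higher, 9 at an unadjusted p under 0.05, with a median of 0.074. Without inulin 5, 10 were lower and the median was 0.051, and with the fat and pancreas covariates it was 0.040. Inulin 5 had the highest mean deviation of this list, 0.21.

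The 17 fat cell markers were all higher, 14 at an unadjusted p under 0.05, with a median of 1.05, and their mean deviation was -0.64 to -0.17 in control mice, 0.70 in inulin 2, 1.17 in inulin 4 and 1.49 in inulin 5. Inulin 1, 3 and 6 were at -0.13, -0.21 and -0.52, in or just above the control range. Without inulin 5 the median difference of the fat cell markers was 0.71. The 15 pancreas markers reached 3.40 in inulin 3 and 1.13 in inulin 5, against -0.93 to 0.31 in control mice. Inulin 1, 2, 4 and 6 were at -0.61, -1.06, 0.49 and -0.63. The pancreas markers with the smallest p-values went the other way, with differences of -2.04 for Pnliprp2 and -0.69 for Clps. The 12 macrophage markers were at 0.87 in inulin 5 and between -0.24 and 0.069 in all other mice. Of these markers 11 were higher, with a median difference of 0.22. Without inulin 5 the median was 0.010 and 5 were lower. Those with the smallest p-values, Ms4a7 (0.36) and Cd163 (0.25), did not overlap between the diets, and differed by 0.39 and 0.27 without inulin 5. The control mean of Cd163, 3.53, lay below the lower quartiles of the arrays. Of the fat cell and macrophage lists 1 marker each lay below the lower quartile on average, and of the pancreas list 0 did. Markers of the tissue under the epithelium were mostly higher too, 12 of 12 for fibroblasts, 10 of 12 for smooth muscle and 10 of 11 for endothelium, with medians of 0.25, 0.22 and 0.38. Inulin 5 was highest for each, at 0.60, 0.42 and 0.67, and without it the medians were 0.18, 0.13 and 0.23. All 8 distal colon Hox markers were lower, 5 at an unadjusted p under 0.05. Their median was -0.56, and -0.59 without inulin 5. Their mean deviation was -0.0067 to 0.65 in control mice, 0.22 in inulin 6 and -0.65 to -0.28 in the other inulin mice. Without inulin 5 Hoxd10 differed by -1.37 and Hoxd11 by -1.39, with adjusted p-values of 0.040 and 0.049 in limma. Markers of other lists passed there too. They were the goblet cell marker Retnlb (-1.16), Ms4a7 (0.39), Pnliprp2 (-2.34) and the surface colonocyte marker Tmigd1 (0.66). Their adjusted p-values in limma were 0.020, 0.031, 0.042 and 0.049. The share of all genes that passed without inulin 5 is not given here.

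With the fat and pancreas marker means as covariates, 21 of the 33 genes were lower, beside 44.8% of all genes, and the median difference was -0.028. Only Myc was then lower at an unadjusted p under 0.05 in limma, beside 5.39% of all genes, with a difference of -0.32 and an unadjusted p of 0.021. Imp4 was higher, by 0.22 with an unadjusted p of 0.013 in limma. With the Hoxb13 and Hoxa13 mean as a covariate 31 of 33 were lower, beside 48.8% of all genes, 6 of them at an unadjusted p under 0.05, beside 6.71%. The fat marker mean differed between the diets itself, with a mean deviation of -0.50 in control and 0.42 in inulin mice. A fit with it as a covariate therefore cannot tell its part from that of the diet. The mean deviation of the 8 distal colon Hox markers differed too, at 0.38 in control and -0.31 in inulin mice. The Hox covariate held none of the Hoxd genes, and the difference of its own mean between the diets is not given here. The fit with it therefore does not tell the part of colon position from that of the diet. The parts of the fat, pancreas, Hox, crypt, cell cycle, macrophage, fibroblast, smooth muscle and endothelial markers in the result were not tested.

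**Figure D5:**
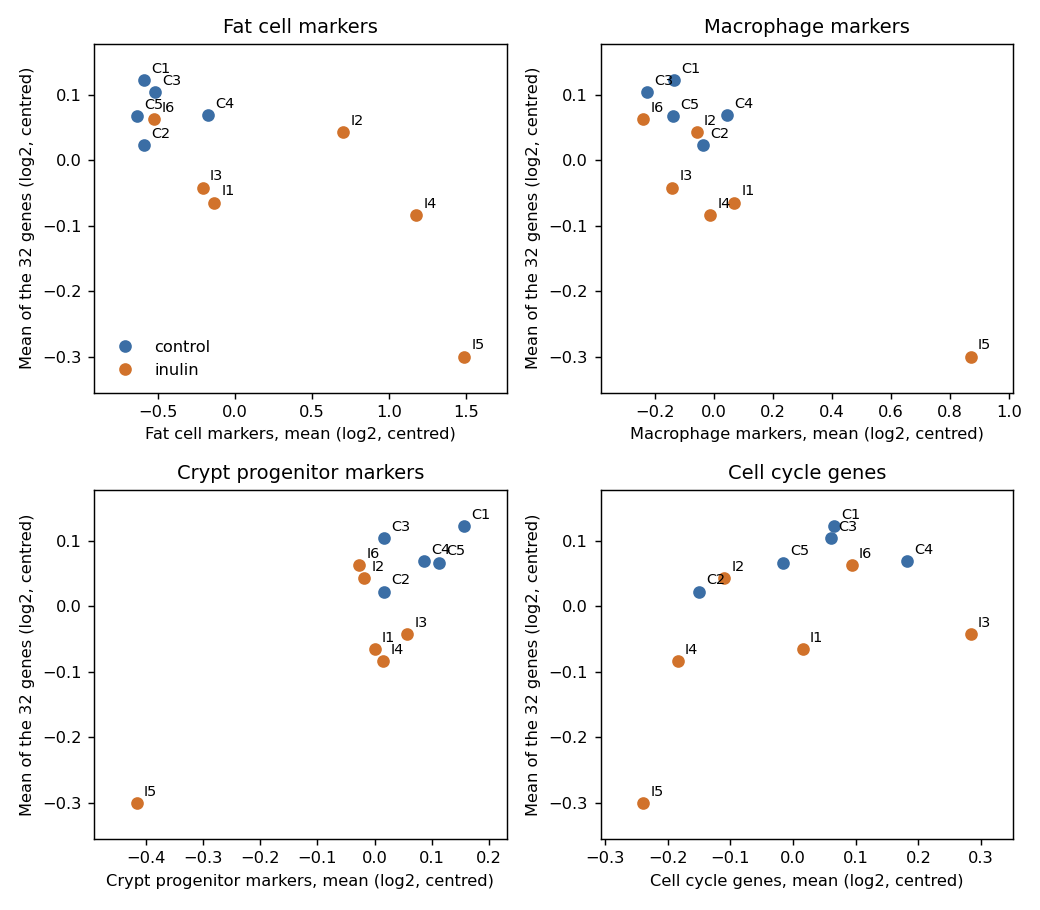
Mean log2 deviation of the 32 genes other than Myc against that of the fat cell, macrophage, crypt progenitor and cell cycle markers, with 1 point per mouse (C, control; I, inulin). Inulin 5, at -0.30 for the 32 genes, is the highest mouse for fat cell and macrophage markers and the lowest for crypt progenitor and cell cycle markers.

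Start sites of these genes were searched for CACGTG, the E-box sequence that Myc and Max bind best, which is its own reverse complement. Windows of 300 bases, 250 before and 50 after a start site, came from RefSeq on the mouse build GRCm38.p6, and 28 of the 34 genes had at least 1. The sequence lay in windows of 8 of 28 genes (28.6%), beside 8.09% of all genes in the promoter table and 9.57% of those tested on the arrays. The windows of the list were richer in G and C, with a median of 59.3% against 52.7% and 57.7%. Both sequences searched hold CG, and the windows held a median of 23 CG pairs against 7 and 15. The 8 matches are shown because they hold the letters that Myc and Max are known to bind, with the matched letters in capitals, on the strand of the gene.
Nop2: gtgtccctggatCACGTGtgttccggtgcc
Imp4: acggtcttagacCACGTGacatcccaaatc
Pes1: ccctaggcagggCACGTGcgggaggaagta
Wdr43: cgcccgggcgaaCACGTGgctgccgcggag
Nle1: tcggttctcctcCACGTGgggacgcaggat
Tsr1: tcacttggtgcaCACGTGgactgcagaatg
Utp20: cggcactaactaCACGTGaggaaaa
Mybbp1a: gtcttctgagccCACGTGtttg
The match of Nop2 lay 60 bases before the start (chr6:125131823-125131828) and that of Imp4 121 bases before it (chr1:34439708-34439713). The others lay after the start, by 2 bases in Pes1 (chr11:3963977-3963982) and by 40 in Mybbp1a (chr11:72441367-72441372). Wdr43 (chr17:71616232-71616237), Nle1 (chr11:82908367-82908372), Tsr1 (chr11:74898104-74898109) and Utp20 (chr10:88826772-88826777) lay between these distances.

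Genes with and without a match were mostly lower. The 7 measured genes with CACGTG had a median difference of -0.11, with 6 lower and 2 at an unadjusted p under 0.05, Mybbp1a and Wdr43. The 20 measured genes with a window but no CACGTG were lower in 20 cases, 7 at an unadjusted p under 0.05, with a median of -0.15. Bop1, Fbl, Myc, Npm1, Rrp12 and Rrs1 had no window in the table. The variant CACGCG, or CGCGTG on the other strand, lay in windows of 9 of 28 genes (32.1%), beside 10.5% of all genes in the table and 15.1% of those tested. The stretches before the start sites of Mybbp1a and Ddx21 are shown as those of the genes after Myc whose diets did not overlap. In Mybbp1a (chr11:72441077-72441326, plus strand) the capitals mark CACGCG and the overlapping CGCGTG, and in Ddx21 (chr10:62602299-62602548, minus strand) none of these letters occur before the start.
Mybbp1a: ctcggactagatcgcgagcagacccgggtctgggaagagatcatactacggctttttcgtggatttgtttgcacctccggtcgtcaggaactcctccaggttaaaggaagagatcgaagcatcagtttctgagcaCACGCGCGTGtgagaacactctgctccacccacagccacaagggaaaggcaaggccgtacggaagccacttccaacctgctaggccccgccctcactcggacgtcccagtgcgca
Ddx21: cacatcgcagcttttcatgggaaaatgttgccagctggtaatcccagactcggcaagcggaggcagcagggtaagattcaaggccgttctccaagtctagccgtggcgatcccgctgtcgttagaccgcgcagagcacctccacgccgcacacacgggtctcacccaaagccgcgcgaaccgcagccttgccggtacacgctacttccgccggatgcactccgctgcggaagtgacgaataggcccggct
Binding of Myc was not measured here, and a match of letters does not show it.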

How the data were processed

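Per the submitters' processing notes the authors used RMA, and the deposited values, 1.46 to 13.7, are on its log2 scale. Its version, the probe set definition and the build were not given in the sources used here. RMA makes the arrays alike, which removes shifts shared by most genes. Scanner intensities were not used, so no value was set against background. Of 35556 probe sets, 21218 had 1 gene symbol in the platform annotation, 1881 several and 12457 none listed. Of those with 1 symbol, 21185 had an Entrez number in the RefSeq gene table, and 0 symbols differed. Symbols gave 18820 genes, 1386 of them with several probe sets, of which the one with the highest mean was used.

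Groups came from the labels, which describe separate mice and give no batch or scan date. Differences and slopes were fitted with limma 3.58.1 in R 4.3.3 (lmFit, eBayes) over all genes, with Benjamini-Hochberg adjustment and a threshold of 0.05. Correlations used 100000 permutations, or all 720 orders of the inulin mice. Alternatives were a prior that follows mean value, a robust prior, array weights, a filter at the 40th percentile, quantile normalisation, median centring, the mean of probe sets, a replicate block, marker covariates and leaving out mice.

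The members and lists were chosen with earlier results of these data known. Named genes are all members, the 3 with the smallest p of each list (not all are printed), and the extremes of the correlation with Myc. On simulated data for inulin minus control over 18820 genes, 30% of 50 genes changed by 0.25 and 78% of those changed by 0.5 were recovered. For the slope on Myc over the same genes, 2% were recovered at 0.5 and 20% at 1. Each simulation also held larger changes and drew the noise of each gene separately, without effects shared by the genes of a mouse. Recovery in the real data may therefore be lower. The 11 arrays limit the precision.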

Additional observations from a re-analysis of the deposited data

Results flagged for a closer look

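Checked were 68 groups of 5 or 6 mice, 66 of a gene in a diet and 2 of the mean of the 32 genes other than Myc. In 7 of them an extreme mouse was set apart by most of the group's range. Chance gives about 1 in 20 for a single group. The groups hold the same mice and the 32 genes vary together, with a median pairwise r of 0.48 on deviations from the diet means. They are therefore not independent, and the count cannot be read against 1 in 20. Inulin 5 was the extreme mouse 4 times. It was at 7.83 for Myc, with the other inulin mice between 8.12 and 8.25, at 7.57 for Polr1b against 8.02 to 8.25, at 6.14 for Gnl3 against 6.64 to 6.87, and at 6.20 for Dkc1 against 6.69 to 6.97. Control 2 was at 8.37 for Ddx21, with the other control mice between 8.47 and 8.48, and at 6.80 for Dkc1 against 6.92 to 6.97. Control 5 was at 6.23 for Nip7, with the other control mice between 6.45 and 6.51.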

How the results depend on the processing

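Over 703 values of single genes other than Myc under the alternatives, 675 kept their direction and 28 turned, in 12 genes. Myc was lower in all 23 settings (-0.47 to -0.32), with adjusted p-values in limma of 0.031 to 0.35. It passed in 1, array weights (-0.37), where it was the 1 gene of the list that passed. The share of all genes that passed in that setting is not given here. The count of genes lower at an unadjusted p under 0.05 was 7 with median centring, 1 with fat and pancreas covariates and 6 with the Hox covariate. It was 4 without inulin 3, 4 and 5, and 6 to 14 leaving out 1 mouse. The share of all genes was 5.39% with fat and pancreas covariates, 6.71% with the Hox covariate and 7.6% without inulin 5. For the other settings that share is not given here. The median difference was -0.028 with fat and pancreas covariates and -0.18 to -0.090 leaving out 1 mouse. With those covariates the direction turned for Npm1 (0.084), Nolc1 (0.064), Fbl (0.018), Nop58 (0.030), Dkc1 (0.081), Rrp9 (0.021), Utp20 (0.037), Bysl (0.0096), Nob1 (0.14), Nop2 (0.073), Nle1 (0.062) and Bop1 (-0.065). It turned with median centring for Utp20 (0.00087), with the Hox covariate for Utp20 (0.066) and Bop1 (-0.051), and without inulin 3, 4 and 5 for Nolc1 (0.022), Utp20 (0.056), Nob1 (0.12), Nop2 (0.050) and Bop1 (-0.016). Leaving out 1 mouse gave -0.023 to 0.028 for Bop1, -0.069 to 0.024 for Utp20, -0.090 to 0.016 for Nob1 and -0.075 to 0.010 for Nop2. Positive slopes on Myc at an unadjusted p under 0.05 numbered 5 with fat and pancreas covariates, 4 with array weights and 0 without inulin 3, 4 and 5, when the median slope was 0.050. Leaving out 1 mouse gave 0 to 13 such slopes and medians of 0.0049 to 0.59. The share of all genes with such a slope was 1.73% without inulin 5 and is not given here for the other settings. The median correlation was 0.18 by Spearman, 0.028 without the 2 mice farthest from the Myc median, and 0.0091 to 0.59 leaving out 1 mouse. The cause of these shifts was not tested.

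The labels do not say that replicate numbers pair the mice. Deviations of same-numbered mice correlated at -0.10 to 0.22, and 2 of 5 pairs correlated best with their own number. So few pairs cannot decide whether the numbers mark a block. With a replicate block on 10 mice, 0 genes of the list passed, 31 were lower, 13 at an unadjusted p under 0.05 in limma, and Myc had an adjusted p of 0.099. Without the block the same 10 mice, a comparison added after seeing the data, gave 14. The share of all genes is not given here for either fit.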
